A study of Homo sapiens with 8 samples.

Results

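The genes described here are 43 enzymes of glycolysis and targets of hypoxia-inducible factor (HIF), the transcription factor that cells switch on when oxygen is low. They were followed in HepG2, a human hepatocellular carcinoma cell line, given serum-free medium alone or with quercetin, a flavonol found in plants, at 3 µM. Members were the probe sets whose platform annotation names exactly 1 of the 43 symbols or its older alias, and 41 of the 43 genes had such a probe set, out of 19775 genes in the table. The expression of CA9 and SLC16A3 was not analysed here, and both enter only the counts of promoter windows. All cultures had been starved of serum beforehand, and RNA was taken at 2, 4, 12 and 24 h. Each of the 2 treatments had 1 Affymetrix array at each of the 4 times, 8 arrays in all. The controls received the same serum-free medium without quercetin, and all arrays come from 1 cell line. No array had a replicate, so the spread in every test below comes from variation of the quercetin difference between times, not between separate cultures. In tests over the 4 times or between times, a gene's own variation was combined with that of genes of like signal. In tests of the early (2 and 4 h) and late (12 and 24 h) periods, only that of genes of like signal entered.

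HIF is a pair of proteins, an oxygen-regulated alpha subunit and a constant beta subunit, that binds the core sequence A/GCGTG near its target genes. In the presence of oxygen the prolyl hydroxylases EGLN1 and EGLN3 mark the alpha subunit for destruction. When they slow down, HIF raises glucose transporters, glycolytic enzymes and the kinase PDK1, which turns pyruvate away from the mitochondria, together with genes of blood vessel growth, collagen crosslinking and mitophagy. The hydroxylases are themselves HIF targets, which makes a feedback loop. Liver cancer cells rely on the same genes for a high rate of glycolysis.

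Values are log2 RMA signals, and a difference of 1 is a doubling of the signal. Each probe set has its own response, so a signal gives no order of expression between genes. Of the 41 genes, 40 had a mean signal above 7.43, the median of all probe sets, and were tested among 13298 genes; PFKM, at a mean of 6.82, was not. The 40 comprised 15 glycolytic enzymes, HIF1A and 24 other HIF targets. The 9 measured hepatocyte markers, ALB and AFP among them, were all above 7.43, with means from 11.46 to 15.09. The leukocyte markers PTPRC, CD3E and CD14 had means between 6.92 and 8.14, while LYZ stood at 13.99, the endothelial markers VWF, CDH5 and KDR were below 7.43 and PECAM1 was at 8.78. Of the 6 fibroblast markers, 4 were tested, with means of up to 9.23. The probe sets for 18S ribosomal RNA averaged 8.57 on the 2 h control array and 12.01 on the 2 h quercetin array, and 7.35 and 7.29 on the arrays at 12 h. The mean of the hybridisation spike-ins ran from 11.19 to 12.11, and the 3' minus 5' signal of ACTB from 0.88 to 1.40.

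The HIF core was found near the start of most of these genes, many of which are listed because they are known targets. In RefSeq promoter windows on GRCh38.p14, from 250 bases before to 50 bases after the start, ACGTG or GCGTG was searched on both strands; CACGTG counts on both. Of 70 windows of 38 members, 48.6% held ACGTG and 70% held either form, against 21.4% and 48.4% of all 35116 windows. The 36 windows of glycolytic enzymes stood at 41.7% and 61.1%, and the 32 windows of the other targets at 59.4% and 81.2%. These are shares of windows, not of genes. HK1 and PFKM had 7 windows each and PFKP 4, and in each of these genes 2 windows held either form. Several windows of 1 gene can overlap, and a match is only a match of letters. The 3 members with no match in any window were EGLN3, P4HA2 and PGAM1, and PGAM1 was the only glycolytic enzyme among them. The windows below belong to genes that the results turn on: ANKRD37, with the highest time change, and HK2, PDK1, KDM3A and PKM, each called for a quercetin difference in a period. Capitals mark ACGTG or GCGTG, or their complements CACGT and CACGC; the windows run 5′ to 3′ along the gene's strand. HK2 has a window at chr2:74833877-74834176, plus strand, and another at chr2:74834920-74835219, plus strand. ANKRD37 lies at chr4:185396591-185396890, plus strand, PDK1 at chr2:172555840-172556139, plus strand, KDM3A at chr2:86441121-86441420, plus strand, and PKM at chr15:72231141-72231440, minus strand.
ANKRD37: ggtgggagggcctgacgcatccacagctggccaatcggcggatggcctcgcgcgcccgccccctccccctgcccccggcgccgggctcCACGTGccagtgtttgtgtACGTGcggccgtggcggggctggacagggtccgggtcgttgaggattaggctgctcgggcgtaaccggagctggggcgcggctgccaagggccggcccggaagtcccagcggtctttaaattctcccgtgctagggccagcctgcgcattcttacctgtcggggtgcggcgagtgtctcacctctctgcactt
HK2, upstream window: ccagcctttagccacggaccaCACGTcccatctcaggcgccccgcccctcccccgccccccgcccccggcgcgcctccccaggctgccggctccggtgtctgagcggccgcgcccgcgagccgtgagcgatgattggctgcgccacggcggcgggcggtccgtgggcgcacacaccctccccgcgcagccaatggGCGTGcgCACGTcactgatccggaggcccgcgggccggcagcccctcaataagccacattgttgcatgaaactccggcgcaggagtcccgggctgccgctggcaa
HK2, downstream window: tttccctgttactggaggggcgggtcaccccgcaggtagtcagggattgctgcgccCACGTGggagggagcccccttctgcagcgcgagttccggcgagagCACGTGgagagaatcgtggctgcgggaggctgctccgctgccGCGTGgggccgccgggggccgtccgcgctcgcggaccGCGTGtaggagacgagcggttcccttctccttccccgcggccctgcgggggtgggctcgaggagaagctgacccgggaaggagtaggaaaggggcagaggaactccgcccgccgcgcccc
PDK1: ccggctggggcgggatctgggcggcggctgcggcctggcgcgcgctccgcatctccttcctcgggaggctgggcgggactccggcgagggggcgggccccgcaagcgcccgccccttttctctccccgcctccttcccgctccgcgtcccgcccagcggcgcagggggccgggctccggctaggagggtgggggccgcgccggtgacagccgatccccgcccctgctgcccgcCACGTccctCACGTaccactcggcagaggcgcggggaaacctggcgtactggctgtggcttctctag
KDM3A: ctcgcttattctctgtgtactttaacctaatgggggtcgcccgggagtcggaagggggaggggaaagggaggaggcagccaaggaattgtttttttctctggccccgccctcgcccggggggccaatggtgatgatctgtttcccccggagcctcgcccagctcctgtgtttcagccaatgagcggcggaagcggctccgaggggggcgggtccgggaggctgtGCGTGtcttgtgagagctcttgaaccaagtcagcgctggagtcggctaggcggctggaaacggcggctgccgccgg
PKM: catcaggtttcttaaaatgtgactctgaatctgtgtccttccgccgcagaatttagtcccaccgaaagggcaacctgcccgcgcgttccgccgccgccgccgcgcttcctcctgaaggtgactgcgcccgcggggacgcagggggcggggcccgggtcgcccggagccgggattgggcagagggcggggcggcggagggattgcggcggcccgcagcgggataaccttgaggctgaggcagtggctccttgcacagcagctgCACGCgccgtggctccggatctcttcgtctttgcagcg
The downstream HK2 window holds 2 copies of the palindrome CACGTG, the ANKRD37 window 1 copy and a nearby ACGTG, and the PDK1 window 2 spaced copies of CACGT just before the start. KDM3A and PKM each have 1 match to GCGTG and none to ACGTG. Another PDK1 window, at chr2:172555123-172555422, plus strand, held no match.

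Between 2 and 24 h in serum-free medium, most HIF targets rose, over both arms, while the glycolytic enzymes other than HK2 did not pass the test. Of the 24 other HIF targets, 19 were called higher at 24 h than at 2 h and 0 lower, against a background of 17.3% of 13298 genes higher and 3.98% lower. Of the 15 enzymes, 1 was called higher and 0 lower. The median change was 0.77 for the targets, 0.06 for the enzymes and 0.09 over all genes tested. Both 24 h arrays lay above both 2 h arrays for 24 of 24 targets and 5 of 15 enzymes, against 37.6% of all genes. The members and lists were chosen with earlier results of these data known, so such counts against the background are not independent of the data. Calls were made at a Benjamini-Hochberg adjusted p under 0.05 in limma, as for every adjusted p below. Contrasts between times, and quercetin over the 4 times, came from a model with time and treatment as added terms on all 8 arrays. The differences at 2 and 4 h, at 12 and 24 h and between these periods came from a model with a separate quercetin term for each period, and values without a time from the arrays that remained. No batch is given in the labels, so whatever the arrays of 1 time share cannot be told apart from time. In bulk RNA, fewer cells of a kind and less RNA per cell cannot be told apart either.

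The counts were also taken within ranges of the array's signal, whose highest value was 15.31. Among genes with a mean above 12, a limit chosen after the values were seen, 0 of 9 enzymes and 4 of 5 targets were called higher, against 18.6% of 824 such genes. These targets had means from 12.02 to 12.92 and these enzymes from 12.98 to 14.83. The count above 12 thus does not compare both sets at like signal. Below it, 1 of 6 enzymes and 15 of 19 targets were called, and the share of all genes below 12 was not taken. When glucose transporters and PDK1 were counted with the enzymes, 3 of 18 were called higher, against 17 of 21 of the rest. A setting called gene-specific here kept only probe sets whose names lack the endings _x_at, _s_at and _a_at, which left 9884 genes to test. With it, 9 of 13 targets and 2 of 6 enzymes were called. The median change was 0.69 for these targets, 0.29 for these enzymes and 0.08 over all genes tested. Without the 12 h arrays 3 enzymes were called, HK2, PGK1 and PKM. Over the alternatives, 1525 to 3973 of all genes were called in either direction, against 2831 in the main fit. The background of 17.3% thus does not carry over to the counts of these 2 settings. Cyclic loess and quantile normalization lowered the median change of all genes to -0.02 and -0.03, that of the targets to 0.56 and 0.53 and that of the enzymes to -0.09 and 0.0001. With these scalings 15 and 16 of the 40 members were called in either direction. The 16 include the enzyme PFKL, called lower, whose change as deposited was -0.16 and not called. The median change of the enzymes thus had no settled sign or size.

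**Figure D1:**
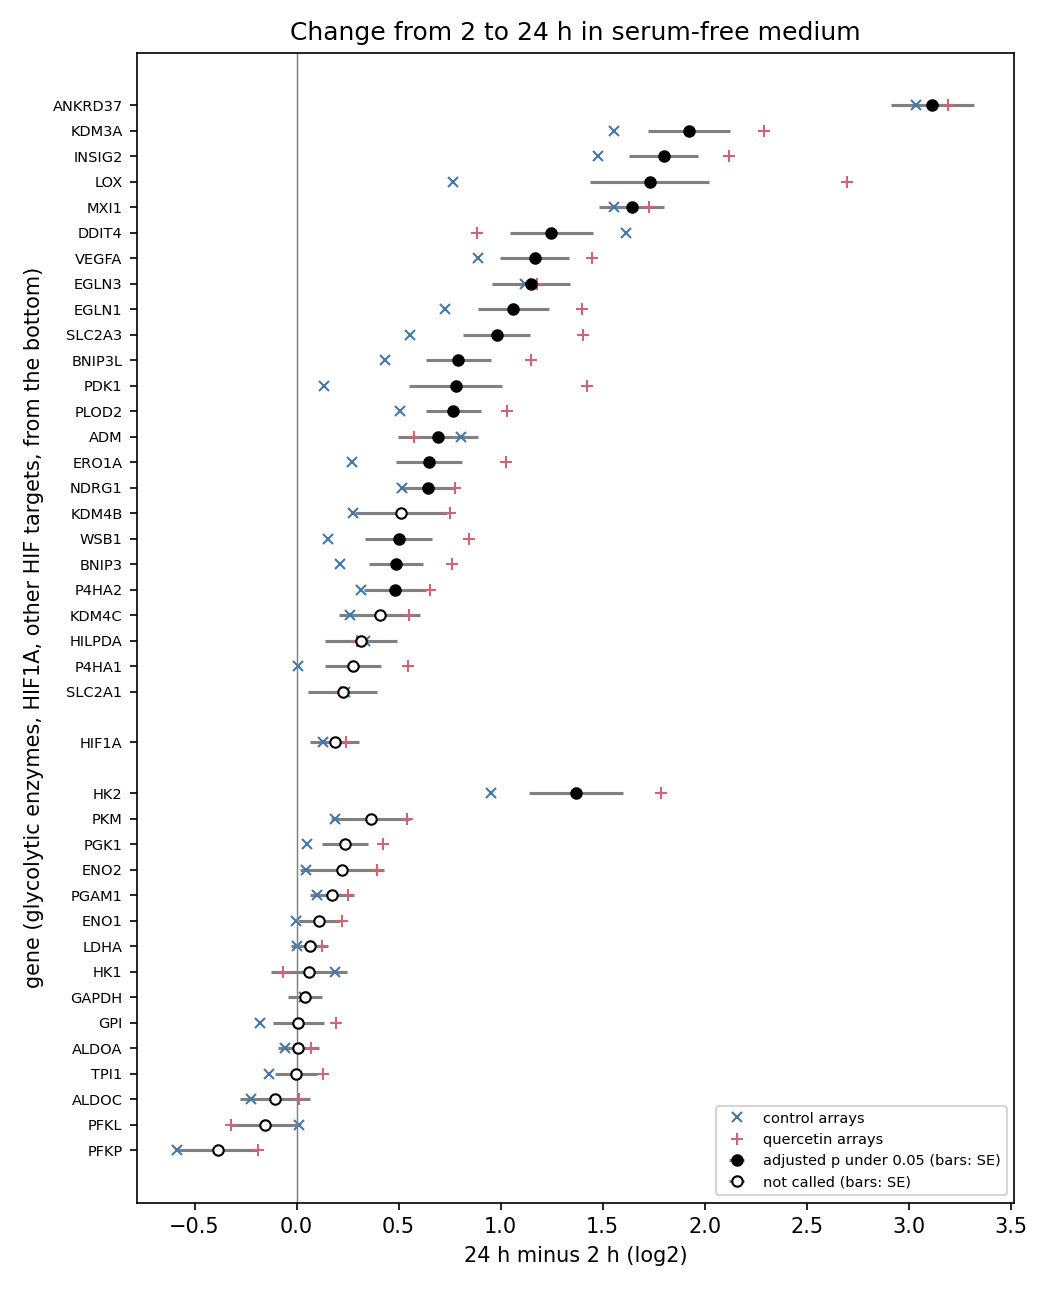
Change in log2 signal from 2 to 24 h for the 40 tested members; crosses are control arrays, plus signs quercetin arrays, circles the estimate over both arms with its SE, filled where the adjusted p was under 0.05. ANKRD37 stands highest at 3.12, 19 of 24 other HIF targets are filled, and HK2 is the only filled glycolytic enzyme.

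The oxygen sensors rose while HIF1A was not called. Signals are given in the order 2, 4, 12 and 24 h throughout. EGLN1, the main prolyl hydroxylase, read 10.89, 10.21, 11.20 and 11.62 in the control arrays and 10.30, 9.93, 11.34 and 11.69 in the quercetin arrays. EGLN3 read 8.16, 8.31, 8.66 and 9.28 in the control arrays and 8.10, 8.04, 8.74 and 9.28 in the quercetin arrays. For both genes the 12 and 24 h arrays lay above the 2 h arrays in each arm. EGLN1 rose by 1.06 ± 0.17 (SE, adjusted p = 0.000198), or 2.09-fold, and EGLN3 by 1.15 ± 0.19 (SE, adjusted p = 0.000216). HIF1A, the alpha subunit, read 12.65, 12.60, 12.49 and 12.79 in the control arrays and 12.53, 12.74, 12.72 and 12.78 in the quercetin arrays. Its 8 arrays lay within a narrow band from 12.49 to 12.79, and its change from 2 to 24 h was 0.19 ± 0.12 (SE, adjusted p = 0.29). The arrays do not measure the protein, whose stability is the regulated step.

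Of the 3 histone demethylases, KDM3A was called between 2 and 24 h, and KDM4B and KDM4C were not. KDM3A removes methyl groups from lysine 9 of histone H3 and needs oxygen to do so. Its signal was 9.96, 9.77, 10.94 and 11.51 in the control arrays and 9.26, 8.91, 10.93 and 11.55 in the quercetin arrays. It was low at 2 and 4 h, lowest in the quercetin arrays, and the arms met at 12 and 24 h. KDM3A rose by 1.92 ± 0.20 (SE, adjusted p = 1.82e-06), which is 3.79-fold. KDM4B, a demethylase of the same histone mark, was 9.79, 9.05, 9.06 and 10.06 in the control arrays and 9.56, 8.46, 9.68 and 10.31 in the quercetin arrays, with a change of 0.51 ± 0.23 (SE, adjusted p = 0.113). It was called for this change with averaged probe sets and with every probe set tested, where 1 of its probe sets gave 1.14 (adjusted p = 0.00265), and for any change over the 4 times by limma's F-test (adjusted p = 0.000368). KDM4C changed by 0.41 ± 0.20 (SE, adjusted p = 0.155). A test of the difference between these genes was not run.

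Among other HIF-regulated genes, 7 of 8 rose, against 17.3% of all genes; the 7 include WSB1, whose change was negative with averaged probe sets. ANKRD37, an ankyrin repeat protein widely used as a hypoxia marker, read 7.21, 8.56, 9.32 and 10.25 in the control arrays and 6.94, 7.76, 9.22 and 10.14 in the quercetin arrays. It climbed at each successive time in both arms and rose by 3.12 ± 0.20 (SE, adjusted p = 3.16e-09), or 8.67-fold. INSIG2, which holds back sterol synthesis, read 10.43, 9.94, 10.77 and 11.90 in the control arrays and 9.85, 9.57, 10.56 and 11.96 in the quercetin arrays, a rise of 1.80 ± 0.17 (SE, adjusted p = 4.74e-07). Both INSIG2 arms were lowest at 4 h. MXI1, an antagonist of MYC, read 10.36, 9.87, 10.07 and 11.91 in the control arrays and 10.10, 9.92, 10.02 and 11.83 in the quercetin arrays. Only its 24 h arrays stood apart from the other 6, and the rise was 1.64 ± 0.16 (SE, adjusted p = 7.01e-07). The stress gene DDIT4, which restrains mTORC1, read 10.64, 11.36, 11.55 and 12.25 in the control arrays and 10.73, 10.65, 11.98 and 11.62 in the quercetin arrays, with a rise of 1.25 ± 0.20 (SE, adjusted p = 0.00019). Its arms parted at 4 and 24 h, where quercetin was lower, and at 12 h, where it was higher.

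NDRG1, a gene strongly induced by hypoxia, read 12.95, 12.21, 12.11 and 13.47 in the control arrays and 12.62, 11.92, 12.21 and 13.40 in the quercetin arrays. ERO1A, the oxidase that forms disulfide bonds in the endoplasmic reticulum, read 11.86, 11.16, 11.49 and 12.13 in the control arrays and 11.16, 10.96, 11.45 and 12.18 in the quercetin arrays. Both reached their low at 4 to 12 h and were highest at 24 h, with changes of 0.65 and 0.65 (adjusted p = 0.000946 and 0.00647). The call of ERO1A was lost with gene-specific probe sets, at 0.35, and after quantile normalization, with adjusted p from 0.00118 to 0.107 over its alternatives. WSB1, part of a ubiquitin ligase, read 11.22, 10.78, 11.50 and 11.37 in the control arrays and 10.65, 10.79, 11.50 and 11.50 in the quercetin arrays. Its call, a change of 0.50 ± 0.16 (SE, adjusted p = 0.0344), rested on the probe set: another WSB1 probe set gave -0.95 (adjusted p = 0.00885 among single probe sets), and the mean of its probe sets gave -0.054. Without the 4 h arrays its adjusted p was 0.056, in a range from 0.0167 to 0.85 over its alternatives. HILPDA, a lipid droplet protein, was not called at 0.32.

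The mitophagy receptors BNIP3 and BNIP3L dipped at 4 h and stood highest at 24 h. BNIP3 read 13.26, 12.44, 12.61 and 13.47 in the control arrays and 12.84, 12.26, 12.83 and 13.60 in the quercetin arrays. BNIP3L read 11.94, 10.96, 11.05 and 12.37 in the control arrays and 11.32, 10.72, 11.02 and 12.47 in the quercetin arrays. In both arms the 24 h value exceeded the 2 h value, and the 4 and 12 h values lay at or below the 2 h value. BNIP3 rose by 0.49 ± 0.13 (SE, adjusted p = 0.0119) and BNIP3L by 0.79 ± 0.16 (SE, adjusted p = 0.00133) from 2 to 24 h. The BNIP3 call was lost after cyclic loess, at 0.28, and with no variance trend, with adjusted p from 0.000607 to 0.0844 over its alternatives.

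The secreted factors rose as well. VEGFA, the main signal for blood vessel growth, read 11.42, 11.19, 11.39 and 12.31 in the control arrays and 10.90, 10.99, 11.78 and 12.35 in the quercetin arrays. Only the 24 h arrays were above 12, and VEGFA rose by 1.17 ± 0.17 (SE, adjusted p = 6.52e-05), or 2.25-fold. ADM, the vasodilator adrenomedullin, read 8.48, 8.96, 9.29 and 9.29 in the control arrays and 8.89, 8.68, 9.42 and 9.46 in the quercetin arrays. It rose by 0.69 ± 0.20 (SE, adjusted p = 0.0151), and its 2 h quercetin array lay above the 2 h control, the opposite of most targets. The ADM call was lost after cyclic loess and quantile normalization, with adjusted p from 0.00903 to 0.0858 over its alternatives. Of the 4 VEGFA probe sets with a mean above 7.43, the other 3 gave 24 h against 2 h changes between 0.06 and 0.59.

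Of the 4 enzymes that modify collagen, 3 rose, against 17.3% of all genes, and 1 of the 3 calls, that of P4HA2, was lost in 5 alternatives. LOX, which crosslinks collagen outside the cell, read 9.55, 8.21, 8.48 and 10.32 in the control arrays and 8.26, 8.21, 8.89 and 10.95 in the quercetin arrays. Its 2 h control array stood above all arrays of 4 and 12 h, and the 24 h quercetin array was the highest. LOX rose by 1.73 ± 0.29 (SE, adjusted p = 0.000268), by 0.76 in the control arm and 2.70 in the quercetin arm, and with robust variance moderation its adjusted p was 0.0611, in a range from 4.10e-05 to 0.0611. PLOD2, a lysyl hydroxylase, read 12.79, 11.99, 12.29 and 13.29 in the control arrays and 12.32, 11.62, 12.30 and 13.35 in the quercetin arrays, a rise of 0.77 ± 0.14 (SE, adjusted p = 0.000395). The prolyl 4-hydroxylase subunit P4HA1 read 12.58, 11.80, 12.06 and 12.59 in the control arrays and 12.06, 11.55, 12.04 and 12.61 in the quercetin arrays. Its 24 h control array was level with the 2 h control array, and its change of 0.28 ± 0.14 (SE, adjusted p = 0.168) was not called. P4HA2, the other subunit, read 11.54, 10.96, 10.999 and 11.85 in the control arrays and 11.15, 10.78, 11.13 and 11.80 in the quercetin arrays. It was called at 0.48 ± 0.15 (SE, adjusted p = 0.0266), but without the 4 h arrays its adjusted p was 0.0508, in a range from 0.00694 to 0.328 over its alternatives. Another P4HA2 probe set changed by 0.08 (adjusted p = 0.843 among single probe sets).

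Of the glucose transporters, SLC2A3 rose and SLC2A1 was not called. SLC2A3 read 11.95, 11.71, 12.10 and 12.50 in the control arrays and 11.42, 11.37, 12.25 and 12.83 in the quercetin arrays, a rise of 0.98 ± 0.16 (SE, adjusted p = 0.000247). Among single probe sets, another for SLC2A3 changed by 0.0009 (adjusted p = 0.998) and a further one by 1.30 (adjusted p = 0.00241). SLC2A1, the widespread glucose transporter, read 10.45, 10.47, 10.24 and 10.69 in the control arrays and 10.49, 10.08, 10.36 and 10.71 in the quercetin arrays, a change of 0.23 ± 0.17 (SE, adjusted p = 0.37). PDK1, which inhibits pyruvate dehydrogenase, read 11.14, 10.50, 11.43 and 11.28 in the control arrays and 10.04, 9.93, 11.71 and 11.46 in the quercetin arrays. Its 12 and 24 h arrays lay between 11.28 and 11.71, above the 2 h control at 11.14 and the other 2 and 4 h arrays. PDK1 rose by 0.78 ± 0.23 (SE, adjusted p = 0.0179), by 0.14 in the control arm and 1.42 in the quercetin arm; the call was lost after cyclic loess (adjusted p = 0.106) and quantile normalization (adjusted p = 0.141), in a range from 0.00368 to 0.169.

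With the probe set used for each gene, only HK2 was called among glycolytic enzymes between 2 and 24 h. HK2, the inducible hexokinase that commits glucose to the cell, read 11.01, 10.59, 10.77 and 11.97 in the control arrays and 10.35, 9.75, 11.32 and 12.13 in the quercetin arrays. Both arms were lowest at 4 h and highest at 24 h, and HK2 rose by 1.37 ± 0.23 (SE, adjusted p = 0.000257), or 2.58-fold. Another HK2 probe set gave -0.33 (adjusted p = 0.333 among single probe sets), and the call was lost with averaged probe sets, at 0.23 (adjusted p = 0.369, in a range from 2.59e-06 to 0.369). The last steps of the pathway were not called. LDHA, which turns pyruvate to lactate, read 14.58, 14.41, 14.29 and 14.58 in the control arrays and 14.48, 14.33, 14.51 and 14.60 in the quercetin arrays. Its 2 and 24 h controls were equal, and the change was 0.06 ± 0.09 (SE, adjusted p = 0.666). PKM, the pyruvate kinase, read 13.26, 12.75, 12.40 and 13.45 in the control arrays and 12.88, 12.72, 13.42 and 13.42 in the quercetin arrays. All PKM arrays lay between 12.72 and 13.45 except the 12 h control, at 12.40, and the change was 0.36 ± 0.19 (SE, adjusted p = 0.195).

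Of the enzymes in the middle of the pathway, PGK1, the phosphoglycerate kinase, read 14.09, 13.74, 13.59 and 14.14 in the control arrays and 13.79, 13.57, 13.89 and 14.22 in the quercetin arrays, a change of 0.24 ± 0.11 (SE, adjusted p = 0.151). PGAM1, the mutase after it, read 13.81, 13.48, 13.46 and 13.91 in the control arrays and 13.66, 13.35, 13.74 and 13.91 in the quercetin arrays. GPI, which makes fructose 6-phosphate, read 13.21, 12.86, 12.76 and 13.03 in the control arrays and 12.95, 12.83, 13.09 and 13.14 in the quercetin arrays. In these 3 enzymes the controls were lowest at 12 h, where the quercetin arrays were higher. Another PGK1 probe set rose by 0.70 from 2 to 24 h (adjusted p = 0.01465 among single probe sets), while others, at 0.27 and 0.20, were not called. PGK1 was also called with gene-specific probe sets. The isomerase TPI1 read 14.06, 13.80, 13.71 and 13.93 in the control arrays and 13.97, 13.75, 14.03 and 14.10 in the quercetin arrays. ALDOC, an aldolase, read 10.87, 10.57, 10.07 and 10.64 in the control arrays and 10.66, 10.28, 10.38 and 10.67 in the quercetin arrays. The platelet phosphofructokinase PFKP read 8.16, 8.25, 8.36 and 7.58 in the control arrays and 8.10, 8.67, 8.21 and 7.92 in the quercetin arrays. Its 24 h arrays were the lowest of each arm, with a change of -0.39 ± 0.20 (SE, adjusted p = 0.182). The other 6 enzymes, HK1, PFKL, ALDOA, GAPDH, ENO1 and ENO2, changed by between -0.16 and 0.22.

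**Figure D2:**
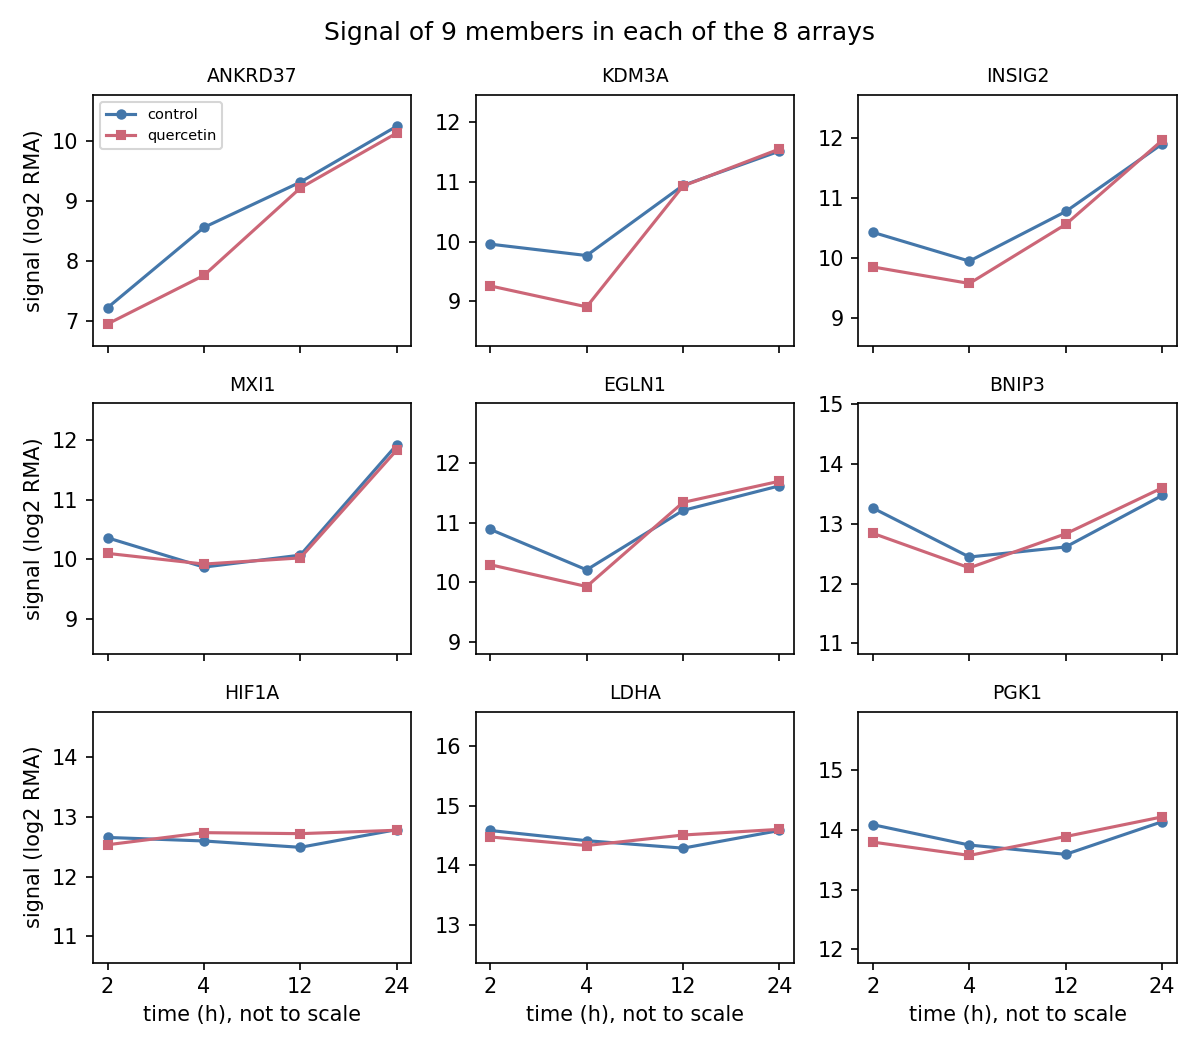
Log2 RMA signal of 9 members on each of the 8 arrays against time, control in blue circles and quercetin in red squares; every panel spans the same range of log2 units and the time axis is not to scale. ANKRD37, KDM3A, INSIG2 and EGLN1 climb from 4 h onward, MXI1 is high only at 24 h, and HIF1A and LDHA were not called for a change over time.

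The change was not even over time. At 4 h against 2 h, BNIP3, BNIP3L, NDRG1, P4HA1 and PLOD2 fell by 0.70, 0.79, 0.73, 0.65 and 0.75, and ANKRD37 rose by 1.08. That is 5 of 24 targets lower and 1 higher, and 0 of 15 enzymes, against 0.496% of all genes lower and 0.0376% higher. After cyclic loess or quantile normalization, 0 members were called for this contrast, and without the 12 h arrays 13 were. At 12 h against 2 h, ANKRD37, KDM3A, DDIT4, PDK1 and EGLN1 rose by 2.19, 1.33, 1.08, 0.98 and 0.68. BNIP3L and NDRG1 fell by 0.60 and 0.63. The background at 12 h was 1.68% higher and 1.32% lower. These contrasts share the 2 h arrays with the one at 24 h. Over the 4 times, limma's F-test called 5 of 15 enzymes (HK2, PFKP, PGK1, PGAM1 and PKM) and 21 of 24 targets, against 38.1% of all genes. Without the 24 h arrays it called 14 of the 40 members instead of 26. Its calls over all genes ranged from 725 to 6979 over the alternatives, against 5064, so the 38.1% does not apply to that count.

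Quercetin had no effect on these genes that the test could call across the 4 times. In limma, 0 of the 40 members and 0% of all genes passed, with 3 members, all of them targets and lower, at an unadjusted p under 0.05, against 5.9% of all genes, or 4.05% lower. The lowest adjusted p among members was 0.844. KDM3A, ANKRD37 and INSIG2, the 3 genes, had mean differences of -0.38, -0.32 and -0.28. The sign of the difference changed with time for most members. Of the members, 1 enzyme, HK1, and 1 target, ANKRD37, were lower on the quercetin array at all 4 times, and 0 were higher at all 4. The same counts were not taken over all genes, so they do not set these members apart.

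At 2 and 4 h the HIF targets read lower with quercetin, and at 12 and 24 h they read near the control. The median difference of the 24 targets was -0.45, -0.28, 0.09 and 0.05 at 2, 4, 12 and 24 h, and over all genes it was -0.06, -0.02, 0.05 and -0.10. Of these targets 21, 21, 8 and 8 were below 0, against 58%, 54.2%, 40.7% and 66.2% of all genes. The 15 enzymes had medians of -0.15, -0.05, 0.31 and 0.01, with 14, 10, 2 and 6 below 0. With gene-specific probe sets, 6 enzymes and 13 targets had medians of -0.42 and -0.42 at 2 h. These are descriptions of 1 array against 1 array at each time, and the difference between the sets was not tested.

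**Figure D3:**
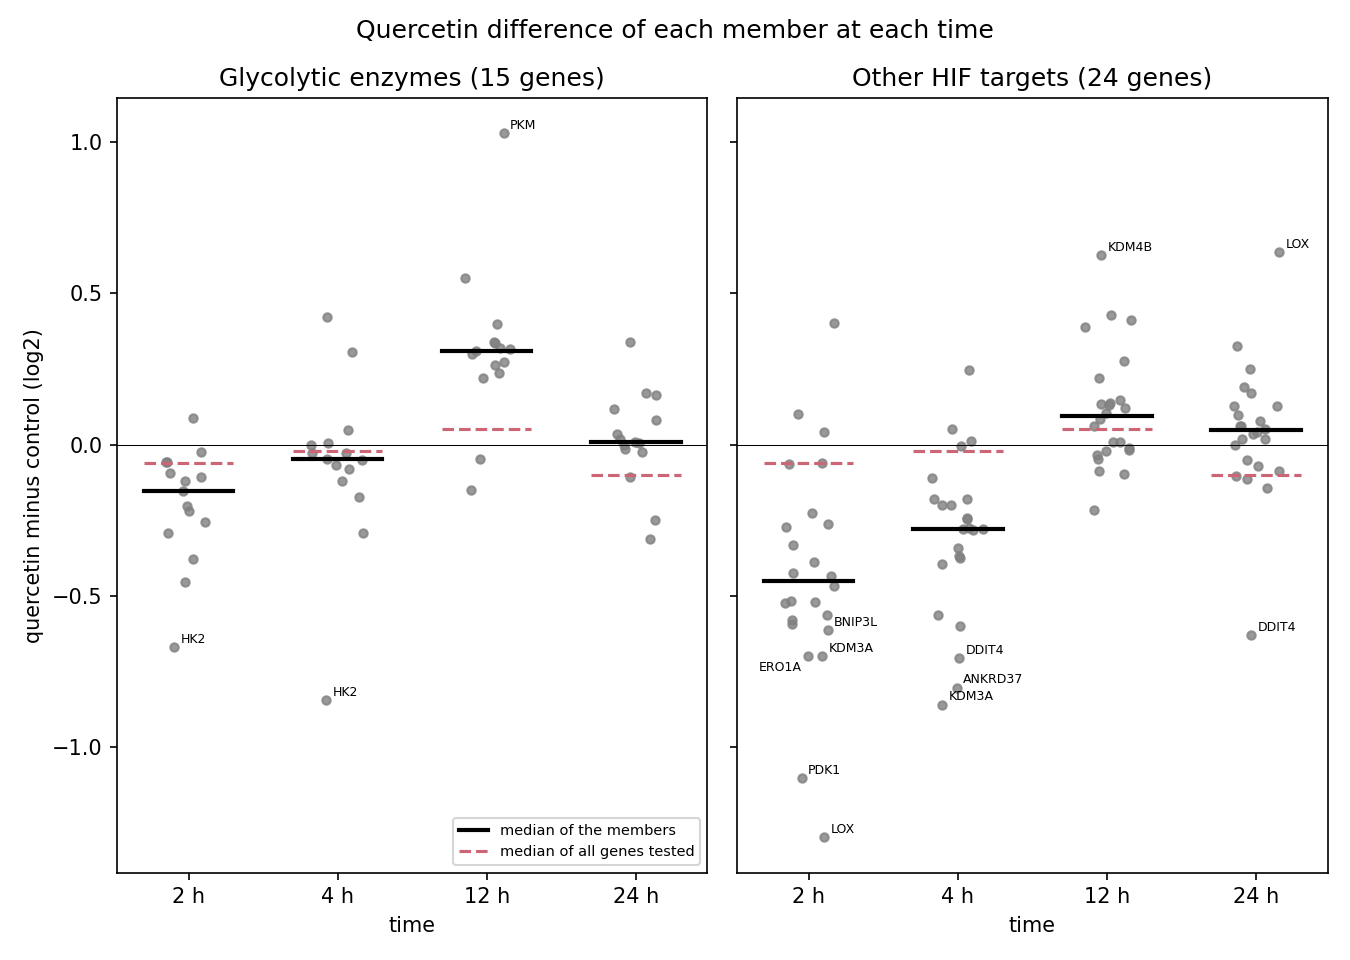
Quercetin minus control difference in log2 signal at each time for the 15 glycolytic enzymes (left) and 24 other HIF targets (right); each point is 1 gene, black bars are medians of the members and dashed red bars medians of all 13298 genes tested, and genes past 0.6 in size are named. Target medians of -0.45 and -0.28 at 2 and 4 h lie below the dashed bars, and the enzyme median of 0.31 at 12 h lies above its own.

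Past a difference of 1 in size at a single time, with no test, were LOX at -1.30 and PDK1 at -1.10 at 2 h, and PKM at 1.03 at 12 h; 0 members passed at 4 or 24 h. Of all genes, 0.353%, 0.0226%, 0.0226% and 0.15% were at least 1 lower at 2, 4, 12 and 24 h, and 0.12%, 0.0451%, 0.323% and 0.233% at least 1 higher. The arrays at 2 h differed most in 18S signal (8.57 in control, 12.01 with quercetin) and in hybridisation spike-ins (11.24 and 12.11). At 4 h the 18S signals were 11.52 and 11.62 and the spike-ins 11.995 and 11.945. The part of either in the result was not tested. At 2 h the quercetin array lay between the controls of 2 and 4 h for 13 of 24 targets and 11 of 15 enzymes, against 47.2% of all genes. The control signal itself was lower at 4 h than at 2 h for 18 targets and 13 enzymes, against 60.4%.

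The scaling of the arrays changed the sizes. Cyclic loess gave target medians of -0.34, -0.23, 0.01 and 0.16, quantile normalization gave -0.36, -0.25, -0.01 and 0.14, so their sign at 12 h depended on the scaling. The enzyme medians under cyclic loess were -0.06, 0.01, 0.14 and 0.04, and quantile normalization gave -0.13, -0.01, 0.13 and 0.05. Median centring gave -0.22, -0.04, 0.29 and -0.01. The enzymes at 4 and 24 h thus had no settled sign. The target medians at 2 and 4 h were below 0 in these 4 scalings, and 3 instead of 8 targets were below 0 at 24 h with cyclic loess or quantile normalization. The median of all genes at 24 h moved by 0.1, from -0.10 as deposited to 0.00 with either of the first 2.

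**Figure D4:**
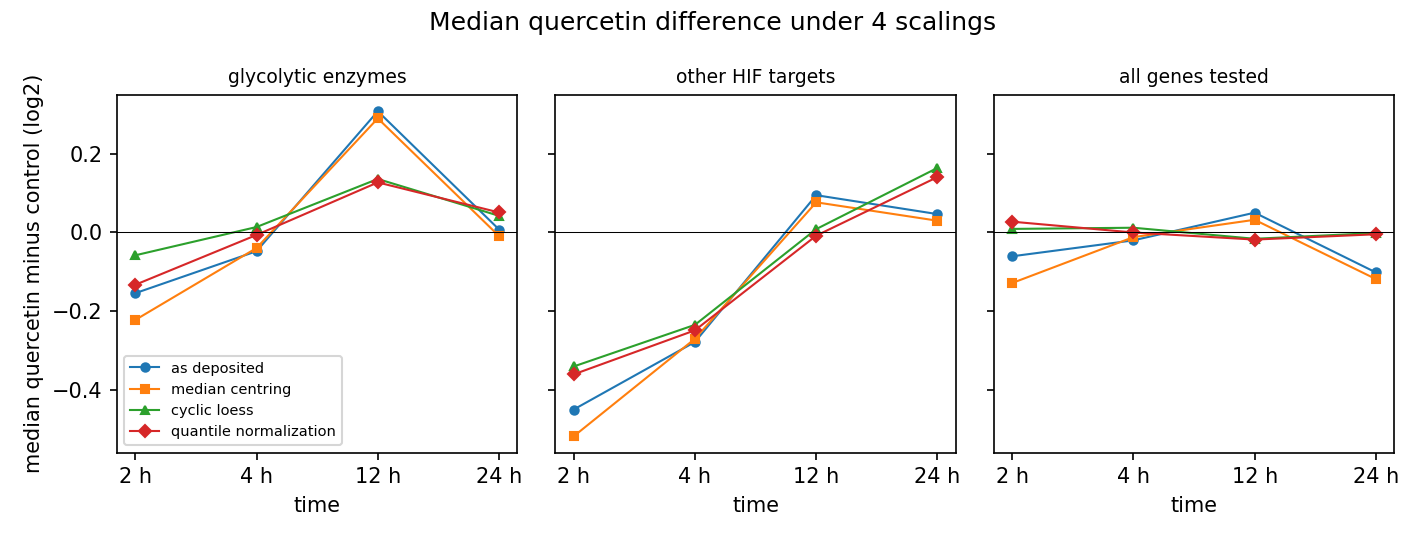
Median quercetin minus control difference (log2) at each time for glycolytic enzymes, other HIF targets and all genes tested, as deposited and after 3 other scalings of the arrays. The target lines lie below 0 at 2 and 4 h in each scaling, while the enzyme median at 12 h falls from 0.31 as deposited to 0.14 and 0.13 after cyclic loess and quantile normalization.

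Over 2 and 4 h together, PDK1, HK2 and KDM3A were lower with quercetin. The differences were -0.83 ± 0.17 (SE, adjusted p = 0.00121) for PDK1, -0.76 ± 0.17 (SE, adjusted p = 0.00633) for HK2 and -0.78 ± 0.19 (SE, adjusted p = 0.0188) for KDM3A. By time, PDK1 differed by -1.10, -0.56, 0.28 and 0.19, HK2 by -0.67, -0.84, 0.55 and 0.16, and KDM3A by -0.70, -0.86, -0.01 and 0.04, so that all 3 were lower in both early pairs. These were 3 of the 14 genes called lower, 0.105% of all genes, while 0 members were called higher (0.128%). At an unadjusted p under 0.05, 15 of 24 targets and 2 of 15 enzymes were lower, against 3.81%. The early mean was below 0 for 23 of 24 targets and 13 of 15 enzymes, against 58.7%, with medians of -0.37 and -0.09 and one of -0.04 over all genes. Both early differences were below 0 for 18 targets and 10 enzymes, against 31.1%.

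These 3 calls depend on how the spread is estimated. With 2 residual degrees of freedom, limma set each gene's variance wholly to that of genes of like signal, so a gene's own spread did not enter. The same holds for the late and the late minus early tests. With eBayes without that trend, the adjusted p was 0.536 for PDK1, 0.618 for HK2 and 0.536 for KDM3A; after cyclic loess it was 0.0662, 0.0882 and 0.133. Without the 2 h pair it was 1 for PDK1, 0.64 for HK2 and 0.761 for KDM3A, and without the 4 h pair HK2 and KDM3A were at 0.274. Over the alternatives with 1 value per gene it ranged from 0.000174 to 1 for PDK1, from 0.000904 to 1 for HK2 and from 0.0143 to 1 for KDM3A, and the difference stayed below 0. Among single probe sets, another HK2 probe set had an early difference of 0.04.

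Next below the threshold came PLOD2 at -0.42 ± 0.13 (SE, adjusted p = 0.234) and SLC2A3 at -0.43 ± 0.14 (SE, adjusted p = 0.386). LOX, at -0.65 ± 0.22 (SE, adjusted p = 0.421), owed its early mean to 2 h alone, with differences of -1.30, 0.00, 0.41 and 0.64 over the 4 times. ERO1A and BNIP3L differed by -0.45 and -0.43, and ANKRD37, with -0.80 at 4 h, by -0.54. None of these 6 genes was called. HIF1A differed by 0.01 early and VEGFA by -0.36 (adjusted p = 1 and 0.819). SLC2A1, ADM and PFKL read higher with quercetin at 2 h, and so did DDIT4, by 0.10.

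**Figure D5:**
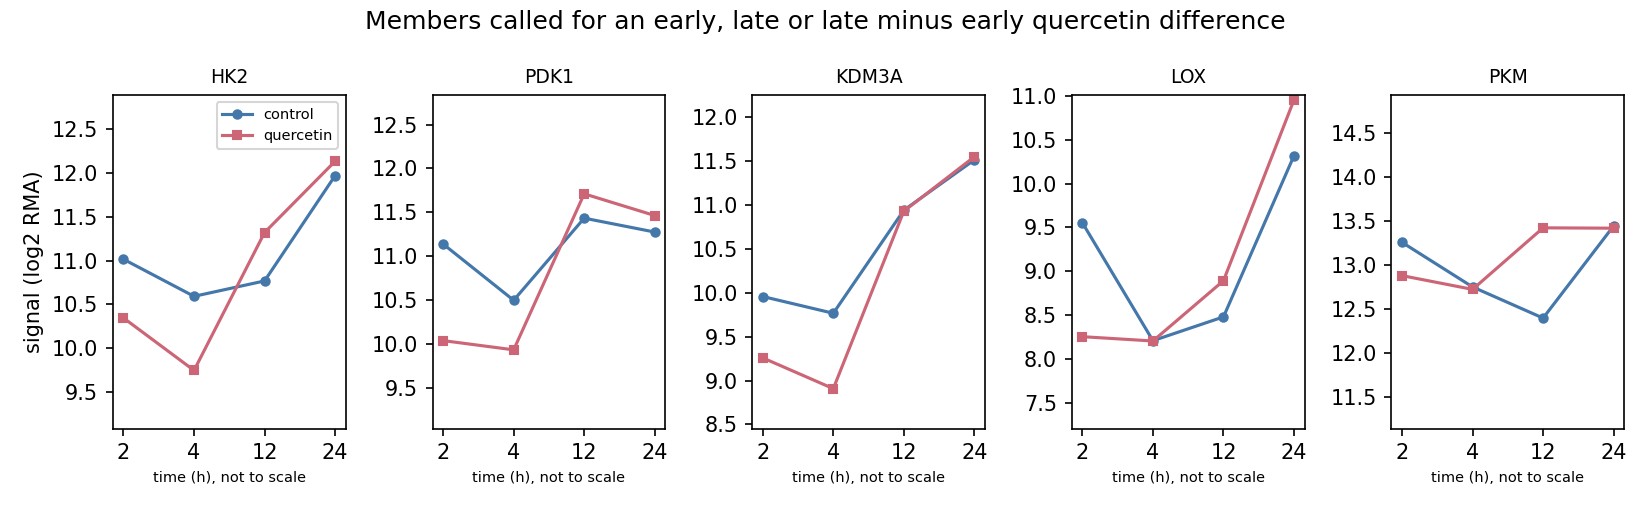
Log2 RMA signal over time of the 5 members called for an early, late or late minus early quercetin difference, control in blue circles and quercetin in red squares; 1 array per point, panels of equal range, time axis not to scale. HK2, PDK1 and KDM3A are lower with quercetin at 2 and 4 h, LOX differs by -1.30 at 2 h, and the PKM curves part at 12 h, where the control array reads 12.40.

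At 12 and 24 h, PKM alone was higher with quercetin, and the call rested on 1 pair. PKM differed by 0.50 ± 0.11 (SE, adjusted p = 0.00533), from differences of -0.38, -0.03, 1.03 and -0.03 over the 4 times. Its SE, taken from genes of like signal, does not reflect the gap between its 12 and 24 h differences. Of all genes, 0.158% were called higher and 0.0376% lower. Without the 12 h pair the PKM difference was -0.026 (adjusted p = 0.99), and another PKM probe set gave -0.25 where the one used gave 0.50. Over its alternatives the adjusted p ranged from 3.65e-15 to 1. The late mean was above 0 for 14 of 15 enzymes and 17 of 24 targets, against 46.7%, with medians of 0.15, 0.04 and -0.01 over all genes. At an unadjusted p under 0.05, 6 of 15 enzymes and 2 of 24 targets were higher late, against 2.71%. At 12 h the 3' minus 5' signal of ACTB was 1.40 on the control array and 0.88 on the quercetin array, and its part in the result was not tested.

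The quercetin difference was higher late than early for HK2, LOX, PDK1 and PKM. The late minus early difference was 1.11 ± 0.24 (SE, adjusted p = 0.00386) for HK2, 1.17 ± 0.30 (SE, adjusted p = 0.0386) for LOX, 1.06 ± 0.24 (SE, adjusted p = 0.0082) for PDK1 and 0.70 ± 0.16 (SE, adjusted p = 0.00613) for PKM. They were 4 of 37 genes called in this direction, 0.278% of all genes, and 0 members were called in the other (0.0902%). The difference was lower at both early times and higher at both late times for 8 of 24 targets and 7 of 15 enzymes, against 5.76%, and the late mean was above the early one for 23 targets and 12 enzymes, against 54.6%. KDM3A, called early, had a late minus early difference of 0.79 ± 0.27 (SE, adjusted p = 0.339). Without the 2 h pair or without the 12 h pair, 0 members were called, and without the 24 h pair 10 were. After cyclic loess, quantile normalization or eBayes without the trend, 0 were called.

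Probe sets of the same gene often, but not always, gave the same sign. For 23 members with several bright probe sets, all had 1 sign for 19 in the early difference, 14 in the late, 16 in the late minus early and 18 in the 24 h against 2 h change. HK2 and ENO1 disagreed in all 4. For PDK1 the 3 bright probe sets gave early differences of -0.83, -0.45 and -0.44 and late minus early differences of 1.06, 0.59 and 1.29. SLC2A3 had early differences of -0.43, -0.56 and -0.86, the last called among single probe sets (adjusted p = 0.012). For PLOD2, a probe set other than the one used gave a late minus early difference of 1.01 (adjusted p = 0.000292), against 0.45.

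Other genes of these pathways were also measured. Of 28 other glycolysis genes, 22 were tested and 3 rose from 2 to 24 h: PFKFB3 by 1.95, PFKFB4 by 0.92 and PGM1 by 0.38, against 17.3% of all genes. PFKFB3 and PFKFB4 make the sugar phosphate that activates phosphofructokinase. PFKFB3 read 7.18, 7.90, 8.66 and 8.81 in the control arrays and 6.64, 6.63, 9.30 and 8.91 in the quercetin arrays. Its 2 h arrays and its 4 h quercetin array lay below the limit of 7.43, so it entered the tests through its other arrays. The differences at 2 and 4 h were -0.54 and -1.27. It was lower with quercetin early, at -0.91 ± 0.21 (SE, adjusted p = 0.0128), and had a late minus early difference of 1.27 ± 0.30 (SE, adjusted p = 0.0145). PFKFB4, at 0.94 (adjusted p = 0.111), was next in that direction, and HKDC1 and PDK2 were lowest at -0.32 and -0.23. The PFKFB3 calls were not followed through the alternatives. There, early calls over all genes ranged from 0 to 64 and late minus early calls from 0 to 162.

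Of 38 other genes of the HIF pathway, 33 were tested, 15 rose from 2 to 24 h and 2 fell, against 17.3% and 3.98% of all genes. CCNG2, a cyclin linked to cell cycle arrest, rose by 3.49, CITED2, which competes with HIF for its coactivators, by 2.14, and the repressor BHLHE40 by 1.67. STC2, JMJD6 and ZNF395 rose by 1.67, 1.61 and 1.07. ANGPTL4, GBE1, PLIN2, RAB20, CREBBP, NARF, EPAS1, FAM162A and TFRC rose by 0.35 to 0.85. HMOX1 fell by 0.53 and CXCR4 fell by 0.56. For quercetin, limma called 0 of the 33 early and 0 late, with 10 lower early and 3 higher late at an unadjusted p under 0.05, against 3.81% and 2.71% of all genes. The coactivator EP300 and BHLHE40 were called for a late minus early difference, at 1.18 ± 0.30 (SE, adjusted p = 0.026) and 1.001 ± 0.26 (SE, adjusted p = 0.039). ANGPTL4 and VHL were lowest at -0.42 and -0.40. By time, EP300 differed by -1.07, -0.35, 0.85 and 0.08, and BHLHE40 by -0.63, -0.61, 0.51 and 0.25. The calls of EP300 and BHLHE40 were not followed through the alternatives, where late minus early calls over all genes ranged from 0 to 162.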

How the data were processed

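RNA from 8 HepG2 cultures, quercetin and control at 4 times, was measured on Affymetrix arrays. The authors deposited log2 values of 54675 probe sets, computed by RMA, per the submitters' processing notes; the version and settings of RMA are not given in the sources used. Of these, 41091 had 1 gene symbol in the platform annotation (41037 updated through Entrez), 1801 several and 11721 none, and 62 were controls. Each gene was represented by its brightest probe set; 13298 genes brighter than the median probe set entered the tests, and 6477 dimmer ones did not. Members had 99 probe sets, and 3 that name a member and another gene were left out.

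The tests used limma 3.58.1 under R 4.3.3 (lmFit, then eBayes with trend, Benjamini-Hochberg, threshold 0.05). An additive model of time and treatment left 3 residual degrees of freedom; a model with separate quercetin terms for 2 and 4 h and for 12 and 24 h left 2. The code was tested on simulated data. Nothing says whether cultures were independent. The number of arrays limits the precision.

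The members and lists were chosen with earlier results of these data known. Values on all arrays were given for members called in any fit, the 6 enzymes and 8 other members with the largest early or late minus early difference, and HIF1A, BNIP3, LDHA, PDK1, SLC2A1 and VEGFA; others by range. Of other pathway genes, those called for the 24 h change or for quercetin and the 2 most extreme late minus early differences each way were named. Alternatives changed the filter, probe set choice, scaling, variance moderation, array weights, time block, times included, set boundaries and fold threshold.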

Additional observations from a re-analysis of the deposited data

Results flagged for a closer look

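In 4 members the late quercetin difference (12 and 24 h) was higher than the early one (2 and 4 h) by the test of the difference itself (limma, early and late terms): HK2 by 1.11, LOX by 1.17, PDK1 by 1.06 and PKM by 0.70 on the log2 scale, with adjusted p-values of 0.00387, 0.0386, 0.0082 and 0.00613. HK2 and PDK1 were lower with quercetin in both early pairs and higher in both late pairs. LOX had its early difference at 2 h and PKM its late difference at 12 h.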

How the results depend on the processing

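Counts of called members changed with the processing, and the cause was not tested. For quercetin at 2 and 4 h, 3 members were called, 0 with averaged probe sets, cyclic loess, quantile normalization or no variance trend, and 0 to 5 with a time left out. At 12 and 24 h the count of 1 became 0 with these 4, with no filter on dim genes and with gene-specific probe sets, 2 with every probe set tested, and 0 to 5 with a time left out. For late minus early, 4 became 1 with no filter, 0 with the same 4, and 0 to 10 with a time left out. At 4 h against 2 h, 6 became 0 with these 4 or every probe set, 3 with gene-specific probe sets, and 5 to 13 with a time left out. At 12 h, 7 became 0 with averaged probe sets, 4 with gene-specific ones, 3 without the trend. Gene-specific probe sets, which leave fewer genes to test, gave 11 instead of 20 calls at 24 h, 10 of them shared, 14 instead of 26 for any change, 9 instead of 19 for the targets and 2 instead of 1 for the enzymes. For any change a left-out time gave 14 to 30, while calls over all genes ranged from 725 to 6979 over the alternatives. The enzyme count of 1 at 24 h became 0 with averaged probe sets, 2 with every probe set and 1 to 3 with a time left out; bright genes alone, added after seeing the data, gave 0 enzymes and 4 targets. For quercetin over the 4 times, members stayed at 0 in the alternatives run, and all genes at 0 to 1. Over all genes, 31 early, 26 late, 49 late minus early, 71 4 h and 2831 24 h calls ranged over 0 to 64, 0 to 144, 0 to 162, 0 to 845 and 1525 to 3973.

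The early median was -0.22 for enzymes with gene-specific probe sets and -0.24 for targets with averaged ones; the late target median was 0.047 to 0.095 with 1 late time left out. Members past 1 at 2, 4, 12 and 24 h (2, 0, 1 and 0) became 12, 6, 3 and 2 past 0.5. At 2 h they became 0 with averaged probe sets and 1 with gene-specific probe sets, cyclic loess or quantile normalization; at 4 h, 1 with gene-specific ones; at 12 h, 0 with the mean, cyclic loess or quantile normalization. PKM at 12 and 24 h ranged from -0.026, a reversal, without the 12 h pair to 1.03 without the 24 h pair, and WSB1 at 24 h against 2 h reversed to -0.054 with averaged probe sets.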
